A study of Mus musculus with 3 samples.

Results

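The receptors for colony-stimulating factors and for progenitor growth factors were examined for PU.1 peaks in a mouse pro-B cell line. They are encoded by Csf1r, Kit, Flt3, Csf2ra, Csf2rb, Csf2rb2 and Csf3r, 7 of the 21900 protein-coding genes in the RefSeq table of build GRCm38.p6, the patched form of mm10. A peak was assigned to a gene when it overlapped the gene's span plus 20 kb on each side, which is called its window here. The windows held 41 of the 74494 peaks of replicate 2, 3 of the 6169 peaks of replicate 3 and 31 of the 49385 intervals of a merged list. The cells were i660BM pro-B cells of C57BL/6 strain with a PU.1 gene that doxycycline switches on. Both ChIP libraries came from cells given 70 ng/ml doxycycline for 24 h, and the antibody was a rabbit polyclonal against PU.1. An input DNA sample has no treatment in its labels and no peak list analysed here. Since both PU.1 libraries were induced, binding by induced and by pre-existing PU.1 cannot be told apart. RNA was not measured, so the level of each receptor in these cells, and the markers of the pro-B stage, could not be checked.

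PU.1, the product of Spi1, belongs to the ETS transcription factors and binds purine-rich DNA around the core GGAA. In myeloid cells it is known to act at genes for growth factor receptors, Csf1r, Csf2ra and Csf3r among them. The receptors fall into 2 families. Csf1r, Kit and Flt3 are receptor tyrosine kinases with a split kinase domain, and bind CSF-1 and IL-34, stem cell factor and Flt3 ligand in that order. Csf2ra, Csf2rb, Csf2rb2 and Csf3r are cytokine receptors that signal through JAK kinases. Kit and Flt3 mark early progenitors, and Csf1r, Csf2ra and Csf3r are used mostly by myeloid cells.

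Peaks sat on some receptor promoters and not on others. RefSeq promoter windows, each running from 250 bases before the start to 50 bases after it, were matched for 5 of the 7 genes. Csf1r and Csf2rb had no matched window and are not in the promoter counts. Each had a replicate 2 peak across its lower-coordinate end, of scores 1004 and 882, and whether that end is the start was not determined. A replicate 2 peak overlapped the windows of Csf2rb2, Csf2ra and Flt3, which made 3 of 5. By the same rule of at least 1 base, 34.7% of the promoter windows of protein-coding genes were overlapped. In these 3 receptor windows the peak covered all 300 bases, and the share of all windows covered in full was not computed. No replicate 3 peak overlapped any of the 5, against 2.70% of all windows. The 3 covered promoters and that of Kit, which had no peak, are shown 5′ to 3′ in the gene's direction, with GGAA on either strand (GGAA or its complement TTCC) in capitals.
Csf2rb2: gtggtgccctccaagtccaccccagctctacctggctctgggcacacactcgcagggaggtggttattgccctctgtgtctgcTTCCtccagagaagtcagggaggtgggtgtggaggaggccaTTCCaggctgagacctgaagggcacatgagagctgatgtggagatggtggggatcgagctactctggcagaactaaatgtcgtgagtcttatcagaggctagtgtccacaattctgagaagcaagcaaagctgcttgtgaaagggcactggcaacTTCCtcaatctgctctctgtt
Csf2ra: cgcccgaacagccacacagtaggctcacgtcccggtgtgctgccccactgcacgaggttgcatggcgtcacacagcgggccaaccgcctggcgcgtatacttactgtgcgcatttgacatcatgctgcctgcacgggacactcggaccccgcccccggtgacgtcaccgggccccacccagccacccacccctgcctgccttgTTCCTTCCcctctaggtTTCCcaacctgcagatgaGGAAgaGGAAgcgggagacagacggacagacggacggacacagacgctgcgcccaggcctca
Flt3: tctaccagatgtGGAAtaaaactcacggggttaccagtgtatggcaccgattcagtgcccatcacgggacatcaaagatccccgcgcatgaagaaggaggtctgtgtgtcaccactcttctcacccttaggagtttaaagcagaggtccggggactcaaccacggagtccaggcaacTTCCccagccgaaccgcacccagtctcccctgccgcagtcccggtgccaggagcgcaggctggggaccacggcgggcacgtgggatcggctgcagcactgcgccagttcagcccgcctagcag
Kit: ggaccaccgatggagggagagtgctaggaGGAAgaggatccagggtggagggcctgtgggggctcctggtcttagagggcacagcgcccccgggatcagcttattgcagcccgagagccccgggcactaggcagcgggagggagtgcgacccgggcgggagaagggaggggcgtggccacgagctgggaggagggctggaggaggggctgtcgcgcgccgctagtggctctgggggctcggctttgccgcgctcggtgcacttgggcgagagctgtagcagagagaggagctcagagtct
They lie on GRCm38.p6 at chr15:78305672-78305971 (minus strand), chr19:61228369-61228668 (minus strand), chr5:147400440-147400739 (minus strand) and chr5:75574737-75575036 (plus strand).

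GGAA on either strand occurred 3 times in the Csf2rb2 promoter, 5 times in that of Csf2ra, 2 times in that of Flt3 and 1 time in that of Kit. The uncovered Csf3r promoter, chr4:126024409-126024708, had the most matches, with 7. At least 1 match was present in 95.7% of the promoter windows of protein-coding genes, with a median of 3. The longer string GAGGAA, searched on both strands and overlapping GGAA by its last 4 bases, occurred 2 times in Csf2rb2, 2 times in Csf2ra, 1 time each in Kit and Csf3r and not in Flt3, and in 27.3% of all windows. GGAAGT, which begins with GGAA, occurred 1 time each in Csf2rb2 and Flt3 and in 24.9% of all windows. The number of matches thus did not separate covered from uncovered receptor promoters. A match is a description of the letters and not a binding site.

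Each peak has a score that the authors' software assigned, taken to be the log10 of its p-value times minus 10. It ranks peaks inside 1 list and was not compared between lists. The replicate 2 list has a median score of 232 and 2431 peaks at exactly 3100, the value at which scores pile up. In the receptor windows, the median replicate 2 score was 440 over 41 peaks. Of these, 10 scored at least 1000 and 5 scored under 100. No test between groups was possible, because the peak lists hold 2 libraries of 1 condition. The values below are therefore descriptions, each set beside the same value over all protein-coding genes.

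PU.1 peaks were present around 6 of the 7 receptor genes in replicate 2, and Kit was the exception. Over all protein-coding genes, 84.2% had a replicate 2 peak in the window, so the count of 6 lies near the background. In replicate 3, 3 receptors had a peak, against 24.0% of protein-coding genes, and these 3 rest on 3 sites, 1 of which lies in the windows of both Csf2rb and Csf2rb2. The same 3 receptors had a region shared by both libraries, against 24.1% of protein-coding genes. An interval of the merged list lay at the same 6 receptors, against 76.0%. The medians of peak density and best score over the receptors lay above those of protein-coding genes, a difference that no test here bears on. The median was 10.02 replicate 2 peaks per 100 kb of window over the 7 receptors and 4.05 over all protein-coding genes. The median best score was 1798 over the receptors and 718 over all protein-coding genes. Kit, without a peak, lay below both medians of protein-coding genes. Csf2rb and Csf2rb2 enter the receptor medians as separate genes, although their windows have 6 replicate 2 peaks in common.

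**Figure D1:**
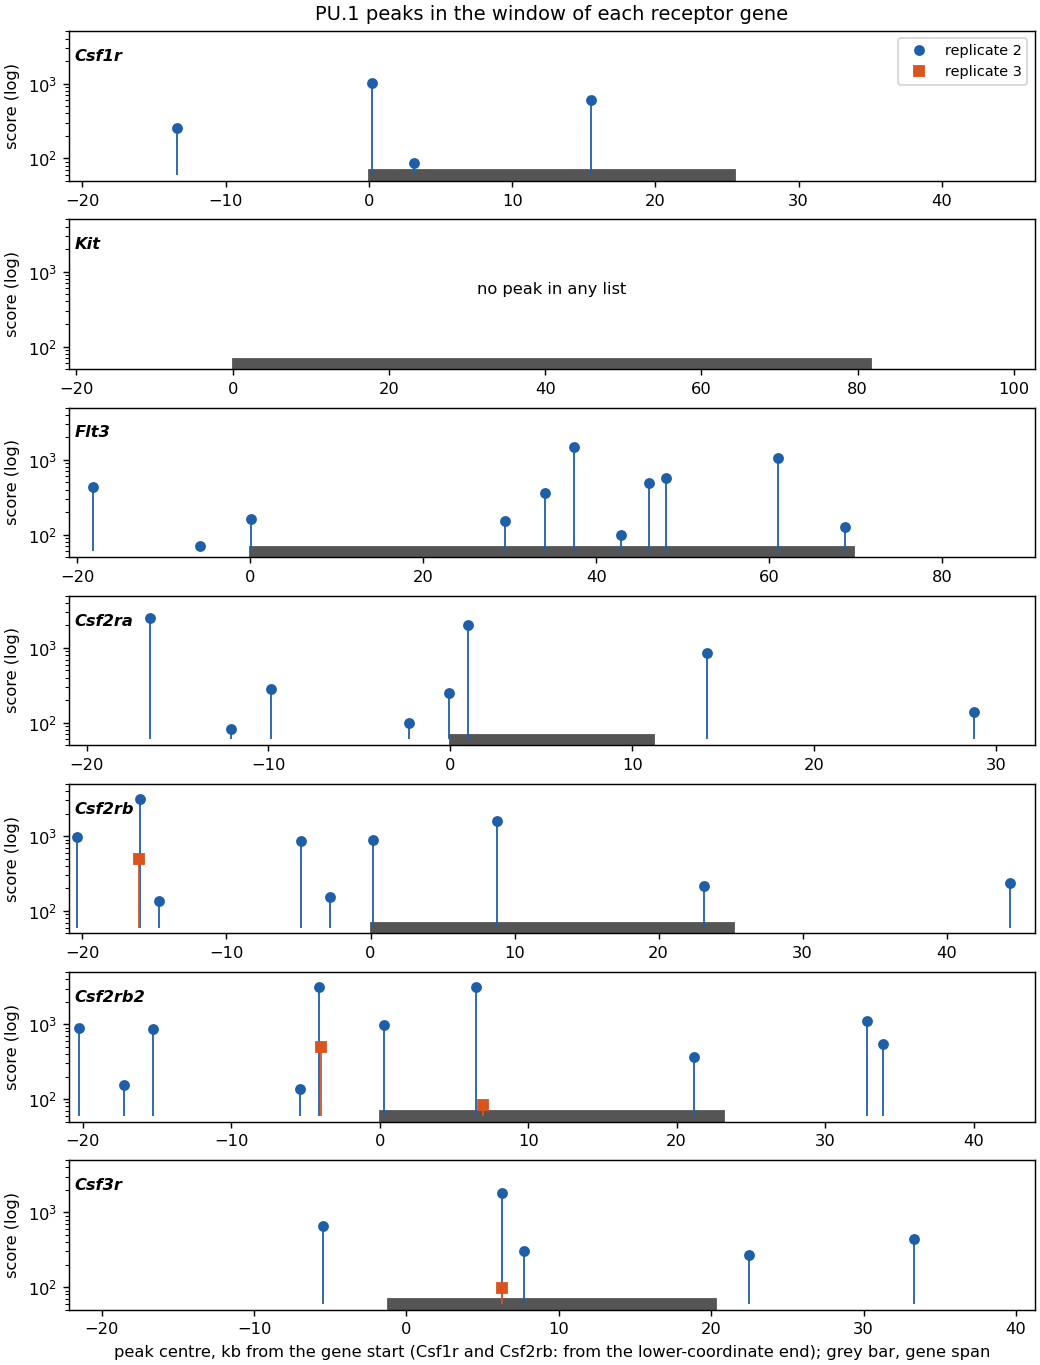
Each panel shows 1 receptor gene, with the distance of each peak's centre from the gene start in kb on the x axis (from the lower-coordinate end for Csf1r and Csf2rb), the peak score on a log y axis, blue circles for replicate 2, orange squares for replicate 3 and a grey bar for the gene span. Kit has no peak, Flt3 has most of its 11 peaks inside the gene, and replicate 3 peaks appear only at Csf2rb, Csf2rb2 and Csf3r.

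Csf1r, the receptor of macrophage colony-stimulating factor, had 4 replicate 2 peaks and no replicate 3 peak. The highest, with a score of 1004, lay at chr18:61105275-61106338 across the lower-coordinate end of the gene, its centre 0.23 kb inside. It ranked in the top 17.5% of the replicate 2 list. A peak of score 600, inside the gene 15.5 kb from that end at chr18:61120216-61121949, also overlapped the non-coding gene Gm52352. A weak peak of score 86.0 lay inside the gene 3.12 kb from that end and was not in the merged list. The fourth peak, of score 256, lay 13.4 kb outside that end, nearer to Pdgfrb, the gene of a platelet-derived growth factor receptor, than to Csf1r. The best score of Csf1r exceeded that of 57.8% of protein-coding genes, the lowest place among the 6 receptors with a peak. In replicate 3 the nearest peaks to Csf1r lay 320 kb and 569 kb from its ends.

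Kit, the receptor of stem cell factor, had no peak in replicate 2, replicate 3 or the merged list within its window of 122 kb. Such an empty window was found for 15.8% of all protein-coding genes in replicate 2. Among the 3062 protein-coding genes with a window at least as long, 3.36% had no replicate 2 peak and 8.59% had no merged interval. The nearest replicate 2 peaks lay 47.2 kb before the gene (chr5:75526711-75527745, score 1343) and 146 kb beyond its far end (chr5:75802509-75803622, score 1331). They bound a stretch of 275 kb without a replicate 2 peak. Both neighbouring peaks scored above 1000, and the closest replicate 3 peak, 66.2 kb before the gene, scored 113.

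Flt3, the receptor of Flt3 ligand on lymphoid and myeloid progenitors, had 11 replicate 2 peaks, the most of the 7 receptors, and none in replicate 3. Of these, 8 were centred inside the gene more than 1 kb from its start, and 1 more lay across the start. The peak over the promoter printed above was weak, with a score of 161. The highest scores lay deep in the gene, at 1495 for chr5:147362294-147363775, 37.5 kb from the start, and at 1054 for chr5:147338675-147340307, 61.0 kb from it. The third highest, 566, lay 48.1 kb from the start. Upstream of the gene, peaks of scores 70.8 and 440 lay 5.81 kb and 18.2 kb from the start, the farther one nearer to Pan3 than to Flt3. Flt3 exceeded 89.4% of protein-coding genes in replicate 2 peaks per 100 kb, but only 68.4% in best score.

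Csf2ra, the alpha chain that gives the GM-CSF receptor its ligand specificity, had 8 replicate 2 peaks in a window of 51.3 kb and none in replicate 3. A peak of score 2032 at chr19:61226778-61228103 was centred 0.98 kb inside the gene, and a separate one of score 253 lay 44 bases further on and covered the promoter. The merged list joined both into a single interval, chr19:61226778-61228955. The highest score, 2535, belonged to chr19:61244346-61245493, 16.5 kb upstream of the start. Another peak of score 848 lay 2.90 kb beyond the far end of the gene. The density of 15.6 peaks per 100 kb exceeded that of 98.0% of protein-coding genes, and the best score that of 82.6%.

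The windows of the beta chains held the highest scores of the 7 receptors in both libraries, at sites nearer to Csf2rb2 than to Csf2rb. Csf2rb encodes the beta chain shared by the receptors for GM-CSF, IL-3 and IL-5, and Csf2rb2 encodes a closely related chain, known from mouse, that serves IL-3. The genes lie 20.1 kb apart on chromosome 15. Their windows overlap, so 6 of the replicate 2 peaks and 4 of the merged intervals count for both. Together they held 13 replicate 2 peaks and 11 merged intervals over 108 kb. Peaks per 100 kb in replicate 2 came to 13.8 at Csf2rb and 15.8 at Csf2rb2, above 96.7% and 98.2% of protein-coding genes.

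Between the genes, a site at chr15:78309149-78310405 had a score of 3100 in replicate 2, and its counterpart at chr15:78309130-78310282 had 491 in replicate 3. It lay 4.06 kb upstream of the Csf2rb2 start and 16.0 kb outside the Csf2rb span, and with windows of 5 kb, or when each peak was given to its nearest gene, it counted for Csf2rb2 alone and 2 receptors had a shared site. In replicate 3 it ranked 403 of 6169, in the top 6.53%, and its score exceeded the best score of 98.1% of protein-coding genes in that list. Genes without a replicate 3 peak count as lower there, and only 24.0% of protein-coding genes had one. The peaks of both libraries overlapped by 1134 bases, and their centres lay 71 bases apart. A second site inside Csf2rb2, 6.49 kb from its start at chr15:78298217-78300248, also scored 3100 in replicate 2. In replicate 3 it scored 83.5, in the lower part of that list, and the narrower replicate 3 peak covered 45.4% of the wide replicate 2 peak. Equal scores in replicate 2 thus went with unlike scores in replicate 3, and the pile-up at 3100 hides any order between these sites in replicate 2.

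The other 11 beta chain peaks of replicate 2 had no replicate 3 peak. Peaks crossed the Csf2rb2 start (chr15:78304577-78306229, score 972) and the lower-coordinate end of Csf2rb (chr15:78325392-78326566, score 882). Inside Csf2rb, a peak at chr15:78334057-78335160 scored 1601. Beyond the far end of Csf2rb2, a peak of score 1110 lay 9.63 kb away and one of score 537 lay closer to Ncf4, a gene of the phagocyte NADPH oxidase, than to Csf2rb2.

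**Figure D2:**
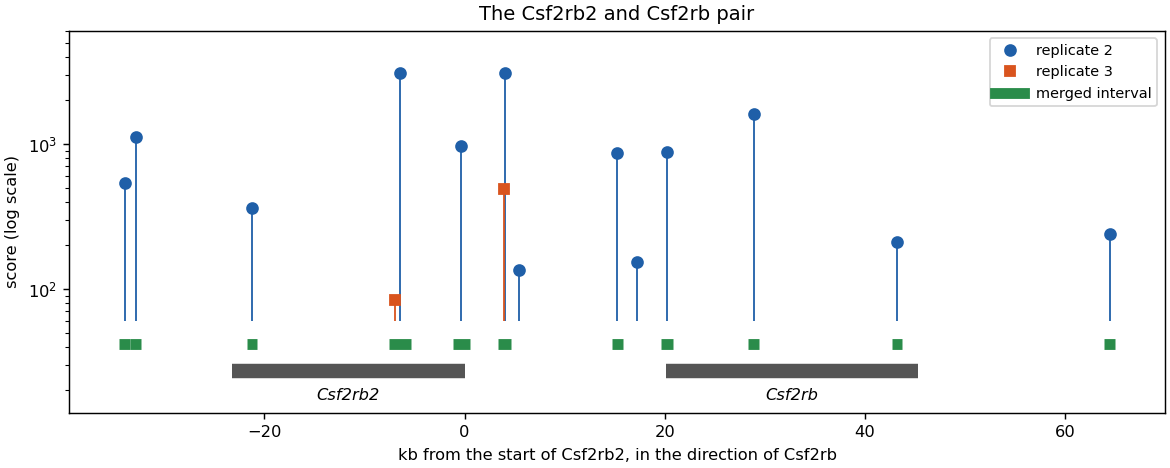
Peaks across the Csf2rb2 and Csf2rb genes, with the distance from the Csf2rb2 start in kb on the x axis and the score on a log y axis, blue circles for replicate 2, orange squares for replicate 3, green bars for merged intervals and grey bars for gene spans. The 2 sites at 3100 in replicate 2 lie on either side of the Csf2rb2 start, and both have a replicate 3 peak, at 83.5 and 491.

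The beta chain genes are closely related, and each held a replicate 2 peak over a microRNA hairpin that has the same sequence in both. The sequence under the rest of these peaks was not compared. RefSeq places the microRNA hairpins Mir7676-1 inside Csf2rb2 (chr15:78284788-78284849, minus strand) and Mir7676-2 inside Csf2rb (chr15:78348599-78348660, plus strand). The hairpins are 62 bases long and differ at 0 positions. Their mature products are shown with the seed, bases 2 to 8, in capitals.
mmu-miR-7676-5p: aGGGCAGUaugauggccucugau
mmu-miR-7676-3p: uCCGGUGCucacucugcccaca
A replicate 2 peak covered each hairpin, with a score of 363 at Mir7676-1 and 212 at Mir7676-2. The peak centres lay 2.03 kb from the nearer end of Csf2rb2 and 2.04 kb from the nearer end of Csf2rb. The sources used here do not say how reads that align equally well to both copies were placed, so the peaks of this pair are uncertain as to which gene they came from, and how far this reaches the other peaks in the gene bodies was not tested.

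Csf3r, the receptor of granulocyte colony-stimulating factor, had 5 replicate 2 peaks and 1 replicate 3 peak. The main site lay inside the gene, 6.26 kb from the start given with the RefSeq promoter, at chr4:126030355-126031481 with a score of 1798 in replicate 2. Its replicate 3 counterpart, chr4:126030522-126031390, scored 96.6, and the centres lay 38 bases apart. A peak of score 306 followed 1.42 kb further into the gene. A score of at least 100 in both libraries removed Csf3r from the receptors with a shared site and left Csf2rb and Csf2rb2. Upstream, a peak of score 659 lay 5.45 kb from the start and overlapped the non-coding gene Gm32908. The peaks downstream, of scores 270 and 446, overlapped Mrps15, a gene of the mitochondrial ribosome, and Oscp1.

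**Figure D3:**
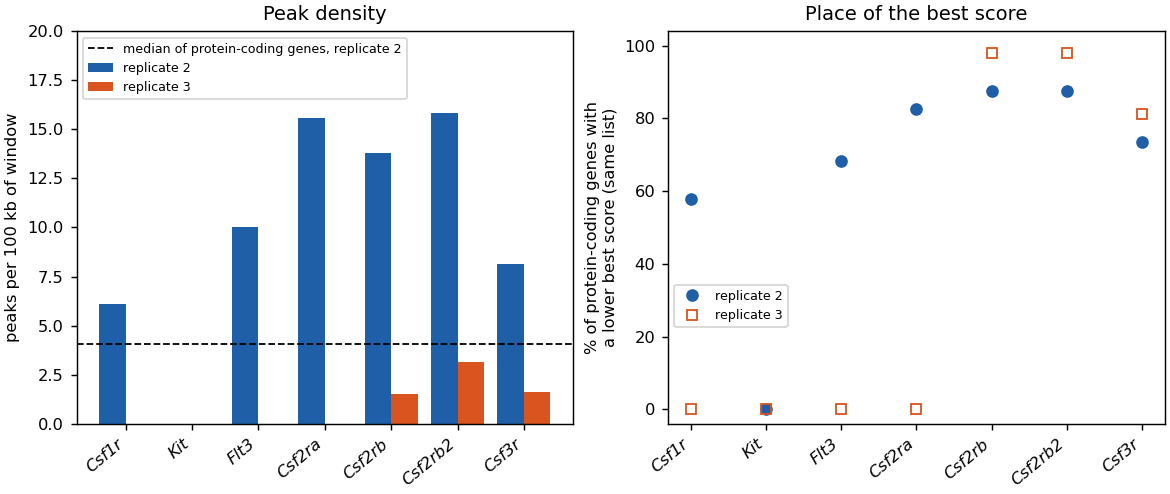
Left, bars give peaks per 100 kb of window for each receptor gene in replicate 2 (blue) and replicate 3 (orange), with the replicate 2 median of all protein-coding genes, 4.05, as a dashed line. Right, symbols give the percent of protein-coding genes with a lower best score in the same list, and 0 marks a gene without a peak. Genes without a peak count among those with a lower score, and in replicate 3 these are most genes. Csf2rb2, Csf2ra and Csf2rb stand highest in density and Kit is at 0 in both panels.

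Ordered by best replicate 2 score, Csf2rb and Csf2rb2 came first at 3100, followed by Csf2ra at 2535, Csf3r at 1798, Flt3 at 1495, Csf1r at 1004 and Kit with no peak. By best score, each of the 4 cytokine receptor genes thus stood above the 3 tyrosine kinase receptor genes in this list. By density the families were not separated, since Flt3 had 10.02 replicate 2 peaks per 100 kb and Csf3r had 8.13. Csf2rb and Csf2rb2 rest on a site in both windows and on 1 site inside Csf2rb2, and are not independent. Csf2rb reached 3100 only through the site in both windows, which lies nearer to Csf2rb2. The best peak nearest to Csf2rb itself scored 1601, below the best of Csf2ra and Csf3r, so its place rests on the window rule. In replicate 3 the best score was 491 at both beta chains, from that same site, and 96.6 at Csf3r. Csf2ra, Flt3, Csf1r and Kit had no replicate 3 peak. With 1 value per list, the spread of a single score between libraries is not known, and neighbours in the order could not be told apart by a test.

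Presence in replicate 3 followed the replicate 2 score. Over the whole series, a replicate 3 peak was found at 97.5% of replicate 2 peaks scored exactly 3100 (exact Clopper-Pearson 95% interval 96.8 to 98.1, counting error only), and both such receptor sites had one. The share was 83.0% (81.0 to 85.0) for scores from 2500 to under 3100, where the receptors had the upstream Csf2ra site, without a replicate 3 peak. From 2000 to under 2500 it was 61.6% (59.3 to 63.9), and the Csf2ra site at the start had none either. From 1500 to under 2000 it was 31.9% (30.2 to 33.7), with 1 of 2 receptor sites, that of Csf3r. Between 1000 and 1500, 8.87% (8.06 to 9.73) had one, and 0 of 4 receptor sites did. Csf1r and Flt3, whose best scores lie in that last range, are thus in a part of the list where most peaks were not seen in replicate 3. In all, 3 of 41 receptor peaks of replicate 2 had a replicate 3 peak (7.32%), against 8.24% of all replicate 2 peaks.

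**Figure D4:**
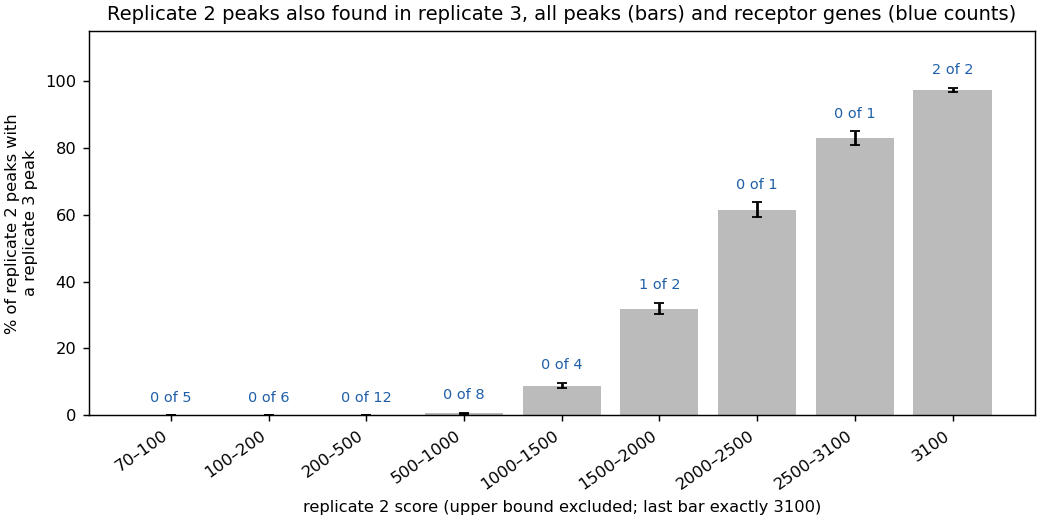
Grey bars give the percent of all replicate 2 peaks that overlap a replicate 3 peak, by replicate 2 score, with exact 95% intervals as error bars, and blue counts give the same for the receptor peaks. The bars climb to 97.5% at a score of 3100, where 2 of 2 receptor peaks had a replicate 3 peak; peaks above 3100, of which the receptors had none, are left out.

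The merged list took in the stronger receptor peaks. It overlapped 32 of 41 receptor peaks of replicate 2 (78.0%), against 66.5% of all replicate 2 peaks. The 9 receptor peaks outside it scored from 70.8 to 153, and those inside it scored at least 153. At the score of 153 itself, a Flt3 peak was inside the list and a Csf2rb peak outside it.

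Ligands and signalling partners of the receptors were taken from lists of 8 ligands, 7 related receptors, 17 adaptors and kinases and 9 inhibitors, all matched in the gene table. The last list includes Ptpn11, a phosphatase better known for promoting receptor signals than for blocking them. A replicate 2 peak lay in the window of every member of these 4 lists, against 84.2% of protein-coding genes. A replicate 3 peak lay at 2 of 8 ligands, 3 of 7 related receptors, 11 of 17 adaptors and kinases and 6 of 9 inhibitors, against 24.0% of protein-coding genes. The median best replicate 2 score was 857 over the ligands, 389 over the related receptors, 2022 over the adaptors and kinases and 3100 over the inhibitors, against 718 over protein-coding genes. Windows ran from 50.2 to 267 kb for the adaptors and kinases and from 41.7 to 217 kb for the inhibitors. The median window of protein-coding genes was 57.1 kb, and a longer window has more room for a peak. No share at matched window length was computed, and the lists were chosen with earlier results of these data known. The ligands with a replicate 3 peak were Flt3l, the ligand of Flt3, with a best replicate 3 score of 85.7, and Il5, a ligand of receptors that use Csf2rb, with 79.4. Both scores were low in that list, which has a median of 136 and a lowest score of 70.0. Which gene lies nearest to these peaks, or to the best peaks of the other genes in the 4 lists, was not examined. Kitl, the ligand of Kit, and Csf1, a ligand of Csf1r, had replicate 2 peaks only, with best scores of 1084 and 817.

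The alpha chains of the IL-3 and IL-5 receptors, which pair with the beta chains, had peaks in both libraries. Il3ra reached 2712 in replicate 2 and 154 in replicate 3, and Il5ra reached 2657 and 167 in the same lists. Flt1, a receptor for vascular endothelial growth factor, reached 3100 and 397 in a window of 205 kb, the longest among the related receptors. The remaining receptor tyrosine kinase genes of the list had peaks in replicate 2 and none in replicate 3, with best replicate 2 scores of 202 at Pdgfra, 389 at Pdgfrb, 182 at Kdr and 172 at Flt4.

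Downstream of the receptors, the adaptors and kinases with the highest replicate 3 scores were Grb2 (499), an adaptor to Ras signalling, the Src family kinase gene Lyn (373), Pik3cd (313), a catalytic subunit of PI3-kinase, and Plcg2 (255), a phospholipase. All 4 scored 3100 in replicate 2. Of the inhibitors, Sh2b3, an adaptor that dampens cytokine and Kit signals, had 787 in replicate 3. Inpp5d, the phosphatase SHIP1, had 432, Socs3 had 227 and Cbl, a ubiquitin ligase acting on receptor kinases, had 197. Jak2, the kinase used by Csf2rb, had 5 replicate 2 peaks with a best score of 326 and none in replicate 3.

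**Figure D5:**
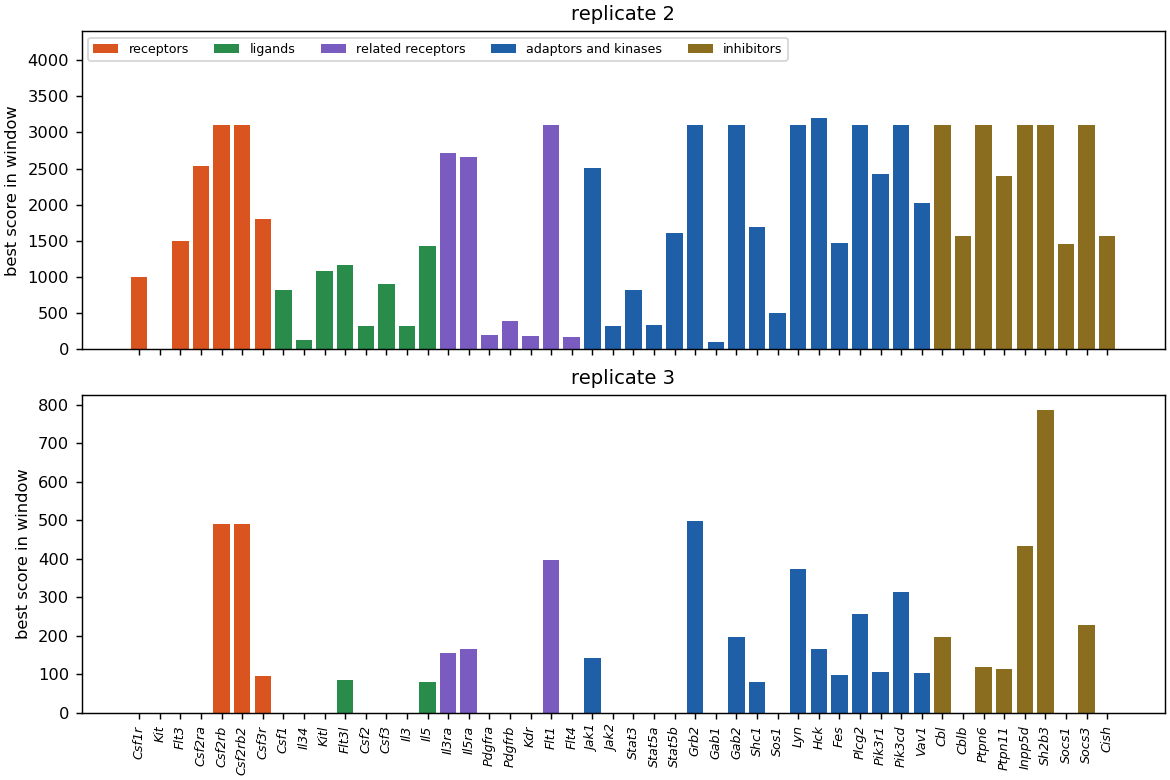
Bars give the best peak score in the window of each gene in replicate 2 (top) and replicate 3 (bottom), coloured by group, with a gap where a gene has no peak. The axes differ because scores are ranked inside 1 list; in replicate 3 the highest bar is Sh2b3 at 787, and Csf2rb and Csf2rb2 share 491.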

How the data were processed

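PU.1 ChIP-seq peak lists of 2 libraries, replicates 2 and 3, were used, with a merged list (the sources used here do not state its construction). Per the submitters' processing notes, Trim Galore, Bowtie and MACS 1.4.1 were used with build mm10. The deposited score of each peak was the authors' own value, carries no normalization between libraries, and is 0 in every merged row. Peaks were called per library. Read depth is unknown here, and the sources used here do not state whether input served as control. Nothing in the labels says that the libraries came from separate cultures.

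Peaks overlapping a RefSeq span (GRCm38.p6) plus 20 kb by at least 1 bp were counted in Python 3.11.15 with pandas 2.3.3, after a check on simulated peaks. Shared regions are unions of overlapping peaks of both lists. Strand and start came from RefSeq promoter windows, and Csf1r and Csf2rb were measured from the lower-coordinate end. Percentiles are over protein-coding genes. The members, lists and rules were chosen with earlier results of these data known. Named are all 7 receptors, each with its replicate 3 peaks, its 3 best replicate 2 peaks and the one nearest the start, and up to 4 genes per list by replicate 3 score. Other peaks and genes were named after their values were seen. For each receptor the 2 most alike genes were taken by Euclidean distance. Alternatives were other windows, a score of at least 100, nearest-gene assignment, reciprocal overlap of 50%, each library alone and all annotated genes.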

Additional observations from a re-analysis of the deposited data

How the results depend on the processing

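Of 36 alternative counts, 31 stayed within 1.5 times the value reported. Within that margin, receptors with a replicate 3 peak fell from 3 to 2 with the span alone and with 5 kb added. The same fall came with a score of at least 100 and with nearest-gene assignment, and receptors with a shared region fell alike. With the gene span alone, the receptor windows held 22 replicate 2 peaks and 18 merged intervals, against 41 and 31 with 20 kb added. With 50 kb added, replicate 3 had 5 peaks in place of 3, and all 7 receptors had a replicate 2 peak, Kit included. With a score of at least 100, 1 replicate 3 peak was left in place of 3. Leaving out 1 library gave 3 to 6 receptors with a site, against 3 with a shared region, and the value of 6 is the count without replicate 3. With all 49997 annotated genes as background, the percentiles of density and best score in replicate 2 moved by -0.01 to 10.2 points over 14 values. No paired analysis was possible because both libraries belong to 1 group and no test was made. Read depth is unknown here, so how far it limits the shorter replicate 3 list was not tested, and a missing peak there does not show that PU.1 was absent.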

Other observations

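The genes most alike to each receptor were sought over 2 libraries, by the distance between peaks per 100 kb in replicate 2 and the best scores in both lists. Csf2rb2 came nearest to Tyrobp, which encodes an adaptor of activating receptors in myeloid cells, with a density of 16.0 peaks per 100 kb and best scores of 3100 in replicate 2 and 527 in replicate 3, followed by Psmg3. Csf2rb came nearest to Set and to Tnfrsf14, a receptor gene of the TNF family, with best replicate 3 scores of 497 and 484. The best scores of Csf2rb used here came from the site that lies nearer to Csf2rb2. Csf2ra came nearest to Bcl6, a transcriptional repressor that acts in germinal centre B cells, followed by Nubp1. Bcl6 had 10 replicate 2 peaks, a best score of 2449 and no replicate 3 peak. Csf1r came nearest to Khdrbs1 and Tmem97, Flt3 to Nol6 and Tmem128, and Csf3r to Ifit1bl1 and Gpx4. Kit shared its lack of any peak with 3466 other protein-coding genes, so none was singled out. With 2 lists the likeness is one of peak number and score alone.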
